A study of Mus musculus with 27 samples.

Results

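The hydroxysteroid 17-beta dehydrogenases and Hsd11b1 were described across 3 diets in liver, epididymal white adipose tissue (WAT) and gastrocnemius muscle of mice. The 8 genes, Hsd17b2, Hsd17b6, Hsd17b7, Hsd17b10, Hsd17b11, Hsd17b12, Hsd17b13 and Hsd11b1, were selected because Hsd17b6 had the largest hepatic rise with ursolic acid in these same arrays, among probes with a single gene symbol. All their probes in the platform annotation were taken, which gave 14 of 45281 probes and 7 of the 8 genes; Hsd17b13, the lipid droplet enzyme beside Hsd17b11 on chromosome 5, has no probe in that annotation. A probe was kept in a tissue where its detection p was under 0.05 on all 3 arrays of at least 1 diet, which left 12 probes of 7 genes in liver, 10 probes of 5 genes in WAT and 7 probes of 5 genes in muscle. Because a probe that was detected with 1 diet alone also passed, counts over kept probes are a description of those probes and not of all members.

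Male C57BL/6J mice, 4 weeks old on arrival, received a normal diet (ND), a high-fat diet with 20% fat and 1% cholesterol (HFD), or the same HFD with 0.05% ursolic acid, a plant triterpenoid (UR), for 16 weeks. RNA was pooled and hybridized to 1-colour Illumina mouse bead arrays, 3 per diet and tissue, 27 in all. The labels give 10 mice per diet, whereas the study's methods give more for both HFD-fed groups, and neither says which mice made up a pool. Every n therefore counts arrays of pooled RNA, and p-values measure the spread between pools, which may be technical. The labels name no engineered allele. All 7 hepatocyte markers were detected in liver, all 7 fibre markers in muscle and all 6 annotated adipocyte markers in WAT, and the summed signal of an array lay between 33610124 and 45514171 for liver, between 41872756 and 47550050 for WAT and between 25797192 and 31855725 for muscle. In tissue RNA, fewer cells of a type and less RNA per cell cannot be told apart.

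Hydroxysteroid dehydrogenases are mostly short-chain dehydrogenases that move hydrogen between a steroid and the cofactors NAD and NADP, and so turn hormones on or off inside a tissue. Several members of the family carry the name for one early assay and are known today for other substrates, among them sterol intermediates, acyl-CoA chains and retinoids. The liver is a main site of steroid inactivation, while Hsd11b1 regenerates active glucocorticoid in liver and fat.

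The members are spread over the genome. In GRCm38.p6 Hsd17b7 (chr1:169949535-169969242) and Hsd11b1 (chr1:193221640-193264045) lie on one chromosome, and Hsd17b11 (chr5:103989765-104021796) and Hsd17b13 (chr5:103955442-103977388) are close together on another. Hsd17b6 lies at chr10:127990931-128007648, Hsd17b12 at chr2:94032697-94157909, Hsd17b2 at chr8:117700982-117759030 and Hsd17b10 at chrX:152001896-152004442.

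Promoters of 2 members are shown, those of Hsd17b6, which leads the hepatic values with UR, and of Hsd17b7, whose level with the HFD went in opposite directions in liver and WAT. They are RefSeq sequences of GRCm38.p6 from 250 bases before to 50 bases after the start, 5′ to 3′ on the strand of the gene, and capitals mark any match on either strand to the box CCAAT, the GC box GGGCGG or the E-box CACGTG. Hsd17b6 has a further start in the table, downstream of this one, which is not shown.
Hsd17b6, chr10:128007562-128007861, minus strand: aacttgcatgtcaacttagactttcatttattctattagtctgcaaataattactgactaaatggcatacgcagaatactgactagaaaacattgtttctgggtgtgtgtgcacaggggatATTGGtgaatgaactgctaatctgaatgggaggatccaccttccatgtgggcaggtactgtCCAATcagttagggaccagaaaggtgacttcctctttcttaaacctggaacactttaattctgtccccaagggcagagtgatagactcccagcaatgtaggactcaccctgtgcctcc
Hsd17b7, chr1:169969156-169969455, minus strand: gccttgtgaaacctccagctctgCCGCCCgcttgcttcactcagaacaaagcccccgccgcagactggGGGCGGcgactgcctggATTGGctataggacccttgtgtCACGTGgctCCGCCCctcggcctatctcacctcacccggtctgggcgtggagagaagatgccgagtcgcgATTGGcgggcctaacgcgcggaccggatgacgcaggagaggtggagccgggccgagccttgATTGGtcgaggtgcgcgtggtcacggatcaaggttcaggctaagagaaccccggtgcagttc
The Hsd17b7 window held 3 matches to the box CCAAT, 3 to the GC box and 1 to the E-box, with no overlap between motifs, and the Hsd17b6 window held 2 matches to the box CCAAT and none to the other motifs. Over 32851 promoters of the same length, 37.4% held the box CCAAT, 35.7% the GC box and 7.15% the E-box. The letters AGGTCA (16.3% of promoters), TTATGTAA (0.938%) and TCACCCC (4.97%) were searched too and occurred in neither window. A match describes letters in these windows and is not a site of binding.

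The members differed in where they were measured with the ND. Hsd17b2, which oxidizes oestradiol and testosterone to weaker hormones, was detected on all 3 liver arrays and on 0 arrays of WAT or muscle. Its liver signal was at least 21.3-fold above WAT and at least 19-fold above muscle. Each bound divides the liver mean by the dim probe's value or by the lowest signal detected on those arrays, whichever was higher. Hsd17b6, which oxidizes androgen metabolites and retinol in mice, was also detected only in liver, at least 1.57-fold above WAT and at least 1.41-fold above muscle. Both genes stayed undetected on all 9 arrays of WAT and all 9 of muscle, so that their response to diet could be followed only in liver.

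Hsd17b7, the ketosteroid reductase of cholesterol synthesis, was 8.20-fold higher in liver than in WAT and 8.55-fold higher than in muscle, whereas WAT and muscle did not differ beyond their spread (1.04-fold, limma adjusted p = 0.553). The 3 bright probes of Hsd11b1, the reductase that makes active corticosterone, were 1.28- to 1.34-fold higher in liver than in WAT and 25.9- to 27.2-fold higher in liver than in muscle. Hsd17b10, a mitochondrial enzyme of isoleucine breakdown and a subunit of mitochondrial RNase P, was nearly even: its log2 difference between liver and WAT was -0.06 (SE 0.09, limma adjusted p = 0.559), and liver exceeded muscle by 0.20 (SE 0.09, limma adjusted p = 0.0455), a call that was lost without liver ND replicate 1 or 3 or any of the 3 muscle ND arrays (0.16 to 0.22, limma adjusted p from 0.0570 to 0.146). WAT exceeded muscle by 0.26 (SE 0.09, limma adjusted p = 0.0117), and by 0.10 without WAT ND replicate 2 (limma adjusted p = 0.252). The brightest probe of Hsd17b12, the ketoacyl-CoA reductase of fatty acid elongation, did not differ beyond the spread between liver and WAT (-0.13, SE 0.10, limma adjusted p = 0.224) and was 7.92-fold higher in liver than in muscle. Its dimmer probe, ILMN_1234796, was 2.09-fold higher in liver than in WAT, so that the order of these tissues depended on the probe. The brightest probe of Hsd17b11, a lipid droplet enzyme, was 4.56-fold higher in liver than in WAT and 3.11-fold higher in WAT than in muscle. Tissue differences were the rule on these arrays: 81.9% of probes were called between liver and WAT, 84.5% between liver and muscle and 81.0% between WAT and muscle.

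**Figure D1:**
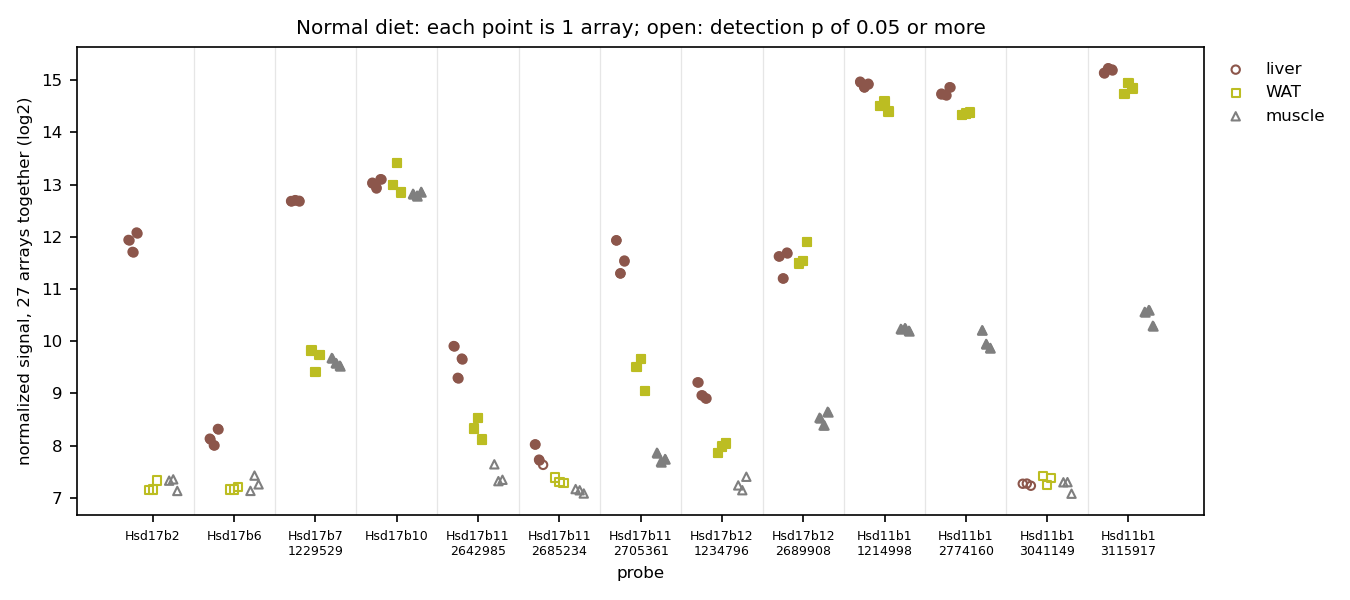
Normalized log2 signal (27 arrays normalized together, y axis) of each member probe kept in any tissue (x axis) on the 3 ND arrays of liver, WAT and muscle; a point is 1 array, and open points have a detection p of 0.05 or more. Hsd17b2 and Hsd17b6 have filled points in liver alone, and Hsd17b10 lies close together in the 3 tissues.

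The HFD moved the hepatic members in both directions. Of 12 kept probes, 2 were higher with the HFD than with the ND (Hsd17b6 and 1 probe of Hsd17b12), 4 were lower (Hsd17b7 and 3 probes of Hsd11b1) and 6 passed in neither direction (limma, adjusted p under 0.05). Over all 17518 kept probes of the liver, 13.3% were higher and 11.6% lower. The median log2 change over the 12 probes was 0.00, against -0.01 over all probes. The HFD arrays here also entered the contrast on which the members were chosen. Of the macrophage markers 4 of 5 annotated were detected in liver, and their summed signal lay between 4758 and 5153 on ND arrays, between 6890 and 7706 on HFD arrays and between 3631 and 4276 on UR arrays. The sums for stellate cells and fibroblasts (6 of 7 detected) were 12293 to 13519, 16443 to 18359 and 16305 to 19826, and those for endothelium (5 of 6) 3237 to 3292, 3598 to 4031 and 2851 to 2974. The hepatocyte sum was 225611 to 228450, 217151 to 220297 and 234352 to 238283, but its markers did not move together. From ND to HFD Serpina1a (-0.51) and Cps1 (-0.28) fell (limma adjusted p = 0.00105 and 0.0311), and the others did not pass. As a description, from HFD to UR Serpina1a changed by 1.84, Ttr by 0.33 and Apoc3 by 0.06. Cps1 changed by -0.68, Alb by -0.56, Ttc36 by -0.22 and Apoa1 by -0.06. The part of these cell types in the hepatic changes of the members was not tested.

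Hsd17b6 stood at 237, 214 and 252 signal units on the ND arrays, 460, 401 and 449 on the HFD arrays and 3155, 3127 and 3505 on the UR arrays. The 3 diets did not overlap, and the UR arrays lay far above the others. On the normalized log2 scale the means were 8.03 ± 0.16, 8.82 ± 0.09 and 11.38 ± 0.21 (SD, n = 3 arrays each). The rise with the HFD was 0.79 (SE 0.10, limma adjusted p = 0.000176), or 1.73-fold. The change from HFD to UR was 2.56 (SE 0.10) and that from ND to UR 3.35 (SE 0.10); both are given as a description, since this gene was chosen by that change. It ranked 1 of 9784 genes by hepatic change from HFD to UR, with each gene read on its brightest probe, and 2 of 17518 kept probes, after a probe with no single symbol (ILMN_2419660) at 2.88. It was followed by Ugt2b34, a glucuronosyltransferase, at 2.40.

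Hsd17b6 is measured by a single probe, so a second probe could not be set beside it. Among the 100 hepatic probes with the largest change from HFD to UR, 45 genes had another kept probe; in 9 of them another probe changed by at least 50% as much, and in 11 every other probe was at or below 0. Among the 100 with the largest rise from ND to HFD, the same counts were 20 and 0 of 31 genes. Total signal was 40602071 to 45514171 on the UR arrays of the liver, above the 33610124 to 36807245 of the ND and HFD arrays, and its part in these values was not tested.

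The genes whose log2 signal was most like that of Hsd17b6 over the 9 liver arrays were Fbxo25, H2-Aa, Ftl1, Huwe1 and Ube2q1, with Pearson r from 0.995 to 0.997 among 9777 genes. Over the 27 arrays of all tissues, normalized together, they were Ces1g, Ugt2b34, Otc, Aadac and 9130409I23Rik, with r from 0.977 to 0.985 among 11844 genes. The points of each correlation share their diet groups and, over 27 arrays, their tissues, so that these values describe a pattern of group means. Ftl1, the ferritin light chain, had means of 13.17, 13.53 and 14.75 with ND, HFD and UR, and H2-Aa, a class II antigen-presenting chain, of 7.96, 8.60 and 10.05.

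Hsd17b2 read 12.01, 11.76 and 12.17 (log2) with the ND, 12.13, 12.27 and 12.28 with the HFD and 11.97, 12.00 and 12.01 with UR. The ND and HFD arrays overlapped, and the difference of 0.24 (SE 0.09) did not pass (limma adjusted p = 0.0616), but passed without ND replicate 3 (0.34, limma adjusted p = 0.0121). The UR arrays lay below the HFD arrays by 0.24, close to the ND mean, but with arrays scaled to a common median the difference was 0.05 in the other direction.

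**Figure D2:**
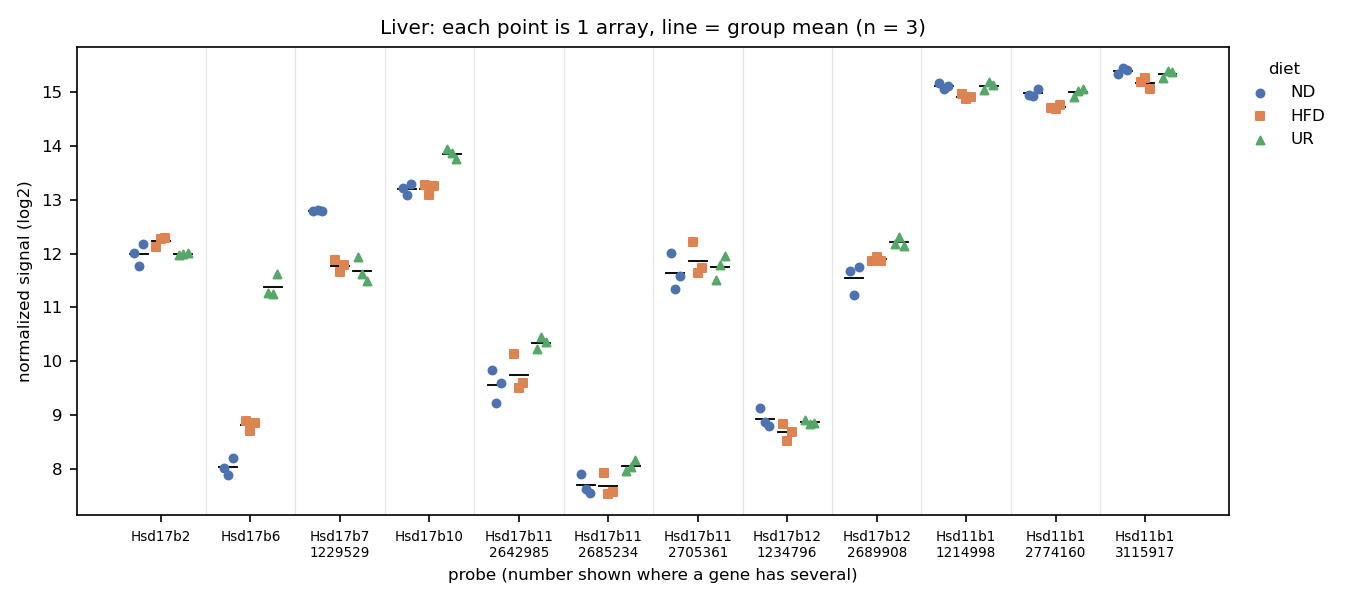
Normalized log2 signal (y axis) of the 12 kept member probes in liver (x axis) with ND, HFD and UR; a point is 1 array and a line the mean of 3 arrays. Hsd17b6 climbs over the 3 diets, Hsd17b7 sits about 1 log2 unit lower with HFD and UR than with ND, and the 2 probes of Hsd17b12 do not move together.

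Hsd17b7 in liver read 12.79, 12.81 and 12.80 with the ND, 11.88, 11.66 and 11.79 with the HFD and 11.94, 11.63 and 11.49 with UR. Both HFD-fed groups lay below every ND array and overlapped each other. The fall with the HFD was -1.02 (SE 0.10, limma adjusted p = 1.64e-05), which left the ND level 2.03-fold above the HFD level. From HFD to UR the change was -0.09 (SE 0.10), which turned to 0.19 with median scaling. In WAT the same probe read 10.40, 10.00 and 10.32 with the ND, 10.93, 11.04 and 10.77 with the HFD and 10.94, 10.95 and 10.92 with UR. Here every HFD and UR array lay above every ND array, by 0.67 (SE 0.10, limma adjusted p = 0.000148) with the HFD and by 0.69 (SE 0.10, limma adjusted p = 8.30e-05) with UR. By the rank product the rise in WAT did not pass with the HFD (false discovery rate 0.0809) or with UR (0.0961). The HFD effects in liver and WAT differed by -1.69 (SE 0.13, limma interaction, adjusted p = 1.81e-10). The second probe of the gene, ILMN_2581059, was not kept in any tissue.

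With the HFD most measured enzymes of sterol synthesis after squalene, the pathway of Hsd17b7, fell in liver and rose in WAT. In liver 8 of 9 measured genes of this list fell with the HFD and 0 rose, with a median of -0.64, where 11.6% of all liver probes fell. Cyp51, the lanosterol demethylase, changed by -1.43 (SE 0.22, limma adjusted p = 0.000538) and Dhcr7, which catalyses the last step to cholesterol, by -0.50 (SE 0.12, limma adjusted p = 0.00779). Sqle, squalene epoxidase, was detected on 1 of 3 HFD arrays, so its change of -1.67 is set by a level near background. In WAT 7 of 8 rose and 0 fell, with a median of 0.39, where 17.4% of all WAT probes rose, led by Msmo1 at 0.60 (SE 0.08, limma adjusted p = 7.39e-05) and Dhcr7 at 0.62 (SE 0.12, limma adjusted p = 0.00122). In muscle 0 of 7 passed with the HFD, where 6.00% of all probes rose and 7.02% fell. As a description, from HFD to UR in liver 5 of 9 genes of the list had all arrays above, where 25.2% of all probes did, and 1 had them all below. The share of all probes lying all below was not counted. The members were chosen on this contrast, and nothing is read from these counts. The median change of the listed genes was 0.22, while Hsd17b7 changed by -0.09, a value that turned with median scaling. This list was chosen with earlier results of these data known.

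**Figure D3:**
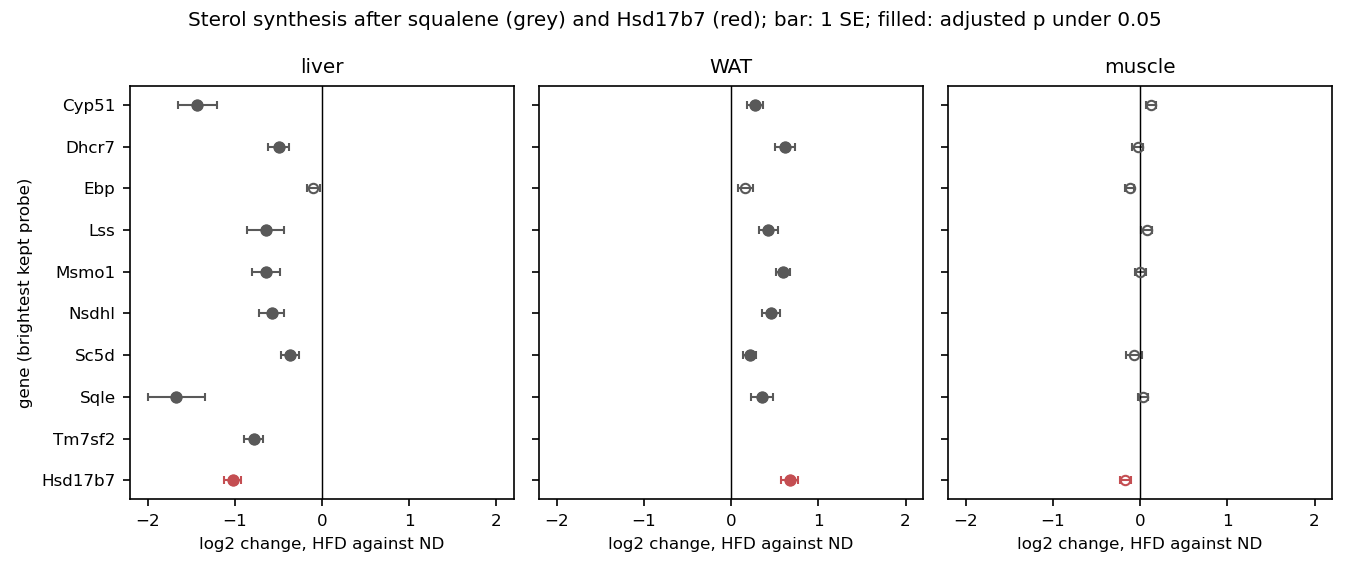
Log2 change from ND to HFD (x axis) of the genes of sterol synthesis after squalene (grey) and of Hsd17b7 (red), with 1 SE, in liver, WAT and muscle; filled points have a limma adjusted p under 0.05. Points lie left of 0 in liver, right of 0 in WAT and close to 0 in muscle.

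Hsd11b1 fell with the HFD in liver by little and in WAT by over 1 log2 unit. With the ND its probe ILMN_1214998 read 15.16, 15.07 and 15.12 in liver, against 14.97, 14.87 and 14.90 with the HFD and 15.03, 15.20 and 15.13 with UR. The HFD arrays lay below the others on this probe. The 3 bright probes gave hepatic changes with the HFD of -0.20 (SE 0.06, limma adjusted p = 0.0166), -0.26 (SE 0.06, limma adjusted p = 0.00527) and -0.23 (SE 0.06, limma adjusted p = 0.0171). The first call was lost without ND replicate 1, HFD replicate 2 or HFD replicate 3 (-0.18 to -0.20, limma adjusted p from 0.0544 to 0.0686), and the last without ND replicate 2 or HFD replicate 3 (-0.21 and -0.17, limma adjusted p = 0.0503 and 0.0832). By the rank product none of the 3 passed (false discovery rate 0.492 to 0.711). From HFD to UR they changed by 0.20, 0.28 and 0.17, and from ND to UR by 0.00, 0.02 and -0.05.

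In WAT ILMN_1214998 read 14.60, 14.67 and 14.48 with the ND, 13.40, 13.36 and 13.58 with the HFD and 13.44, 13.44 and 13.54 with UR. Both HFD-fed groups lay below every ND array and overlapped each other. The changes with the HFD were -1.14 (SE 0.07, limma adjusted p = 1.10e-07), -1.16 (SE 0.08, limma adjusted p = 2.04e-07) and -1.19 (SE 0.10, limma adjusted p = 1.30e-06) on the 3 probes. With UR against the HFD they were 0.03, 0.08 and 0.09, with 95% confidence intervals that together ran from -0.12 to 0.31, so that a return by more than 0.31 lay outside the intervals. The dim probe of the gene, ILMN_3041149, rose by 0.26 with the HFD (SE 0.06, limma adjusted p = 0.00581). It was detected on 0 of 3 ND arrays and 2 of 3 HFD arrays, its bound was at least 1.04-fold, and over the 9 WAT arrays its r with the bright probes was -0.911 to -0.935. Its group maximum of the detection p was 0.0395 with UR, just inside the threshold.

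The HFD effect on the 3 bright probes differed between WAT and liver by 0.93, 0.90 and 0.97 (liver minus WAT; limma interaction, adjusted p = 5.29e-09, 2.39e-07 and 5.56e-07). In muscle these probes read 9.35 to 10.06 with the ND, and their changes with the HFD were -0.13, -0.04 and -0.10, none of which passed. In WAT the summed signal of the macrophage markers, of which 4 of 5 annotated were detected, was 7297 to 8216 on the ND arrays, 18127 to 21759 on the HFD arrays and 19742 to 23685 on the UR arrays, while the adipocyte sum was 136543 to 153945, 151381 to 158731 and 141511 to 146911. The adipocyte markers within that sum did not move together from ND to HFD. Cidec (-0.36), Plin1 (-0.31), Retn (-0.43) and Lipe (-0.51) fell (limma adjusted p from 0.000364 to 0.00343). Lep rose by 0.67 (limma adjusted p = 4.84e-05), while Adipoq, at -0.11, did not pass (limma adjusted p = 0.113). The mesothelial sum was 2101 to 2360, 1409 to 1839 and 737 to 804. Their part in the levels of Hsd11b1 and of the other members in WAT was not tested.

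H6pd, which supplies NADPH to Hsd11b1 in the endoplasmic reticulum, fell with the HFD in WAT by 0.34 (SE 0.07, limma adjusted p = 0.00199). Of 13 measured genes of the glucocorticoid receptor and its targets in WAT, 2 rose and 3 fell (17.4% and 20.7% of all probes), and the median was -0.17 against -0.03 over all probes. Pck1, the enzyme of glyceroneogenesis in fat, fell by 1.25 (SE 0.10, limma adjusted p = 1.37e-06), and Mt2, a metallothionein, rose by 0.66 (SE 0.11, limma adjusted p = 0.000406). In liver 1 of 14 rose and 2 fell with the HFD (13.3% and 11.6% of all probes), among them Fkbp5, a co-chaperone of the receptor, at -0.75 (SE 0.15, limma adjusted p = 0.00290).

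**Figure D4:**
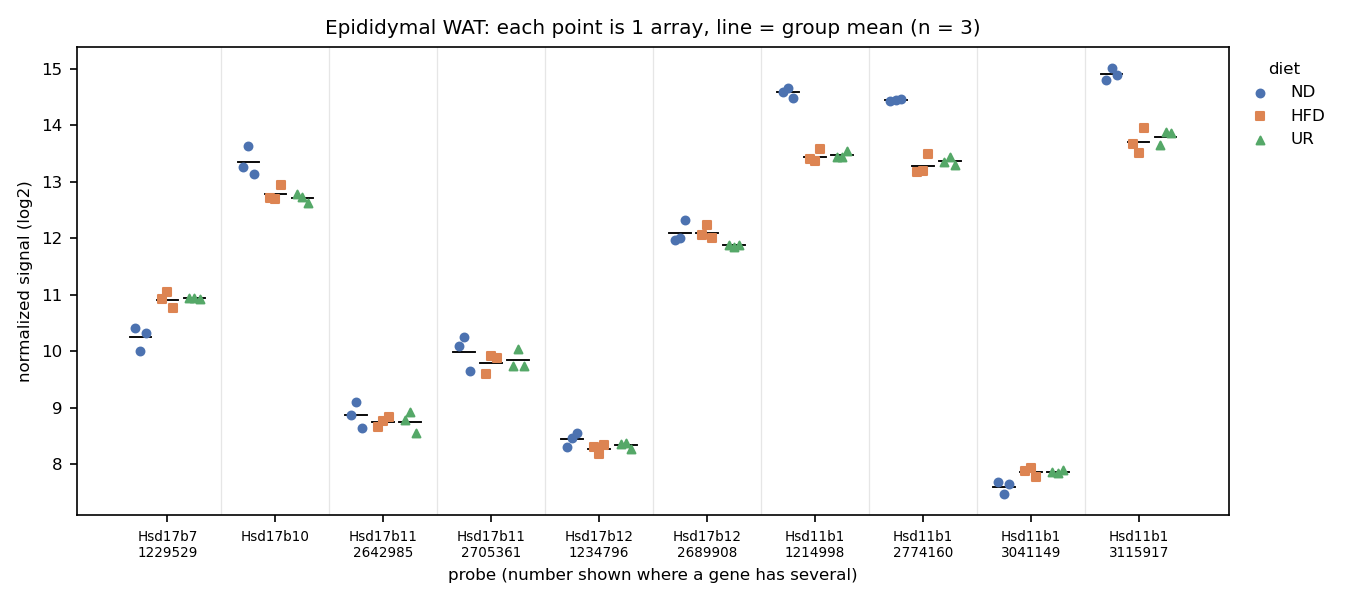
Normalized log2 signal (y axis) of the 10 kept member probes in epididymal WAT (x axis) with ND, HFD and UR; a point is 1 array and a line the mean of 3 arrays. The 3 bright Hsd11b1 probes and Hsd17b10 are lower and Hsd17b7 higher with HFD and UR than with ND, and HFD and UR points lie together.

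Hsd17b10 was bright in every tissue, and its arrays stood apart with UR in liver and with the ND in WAT. In liver it read 13.21, 13.09 and 13.29 with the ND, 13.27, 13.09 and 13.26 with the HFD and 13.95, 13.86 and 13.76 with UR. ND and HFD arrays overlapped (0.01, SE 0.07, limma adjusted p = 0.931), and every UR array lay above both, by 0.65 over the HFD. In WAT it read 13.26, 13.63 and 13.14 with the ND, 12.71, 12.70 and 12.93 with the HFD and 12.79, 12.73 and 12.63 with UR. The fall with the HFD was -0.56 (SE 0.11, limma adjusted p = 0.00121) and did not pass by the rank product (false discovery rate 0.0875), and the effects in liver and WAT differed by 0.57 (SE 0.12, limma interaction, adjusted p = 0.000656).

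Among its partners in isoleucine breakdown and RNase P, 6 of 9 measured genes fell with the HFD in WAT and 0 rose, with a median of -0.59, where 20.7% of all probes fell. Dbt, a subunit of the branched-chain ketoacid dehydrogenase, changed by -0.70 (SE 0.07, limma adjusted p = 5.41e-06) and Echs1, the next hydratase, by -0.54 (SE 0.07, limma adjusted p = 5.57e-05). In liver 2 of 9 fell with the HFD and 0 rose (11.6% and 13.3% of all probes). From HFD to UR in liver the arrays lay all above for 6 of 9 genes, where 25.2% of all probes did, and all below for 1. The share of all probes lying all below was not counted, and the members were chosen on this contrast. As a description, Trmt10c, another RNase P subunit, changed by 1.39 (SE 0.08) and Acadsb, an acyl-CoA dehydrogenase of the pathway, by 2.06 (SE 0.10).

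Hsd17b12 was measured by 2 probes that did not move together in liver. ILMN_2689908 read 11.67, 11.23 and 11.75 with the ND, 11.87, 11.93 and 11.87 with the HFD and 12.19, 12.32 and 12.14 with UR. It rose by 0.34 with the HFD (SE 0.11, limma adjusted p = 0.0369), a call that was lost without ND replicate 2 (0.18, limma adjusted p = 0.0996) and without HFD replicate 1, 2 or 3 (0.32 to 0.35, limma adjusted p from 0.0739 to 0.106). It was lost too with median scaling (adjusted p = 0.0674 in limma), with only the 6 arrays compared (0.0577), with the replicate block (0.0512) and by the rank product (false discovery rate 0.338). ILMN_1234796 read 9.13, 8.86 and 8.80, then 8.83, 8.52 and 8.68, then 8.90, 8.84 and 8.85, and its difference with the HFD was -0.25 (SE 0.09, limma adjusted p = 0.0648), which passed with the replicate block (adjusted p = 0.0310 in limma) and without ND replicate 3 or HFD replicate 1 (0.0381 and 0.0335). Over the 9 liver arrays the 2 probes had an r of -0.148. In WAT no change passed on either probe with all arrays in limma. Without ND replicate 1 the HFD difference of ILMN_1234796 was -0.23 (limma adjusted p = 0.0194), and without ND replicate 1 or 2 the difference of ILMN_2689908 between UR and the ND was -0.29 or -0.27 (limma adjusted p = 0.0258 and 0.0361). Of 9 measured genes of fatty acid elongation, 1 rose and 3 fell with the HFD in liver (13.3% and 11.6% of all probes): Elovl1 by 0.41, and Elovl3, Elovl2 and Tecr by -2.07, -0.97 and -0.31.

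Hsd17b11 passed no limma test between diets with all arrays. Without WAT ND replicate 3, ILMN_2705361 passed there with the HFD (-0.37, limma adjusted p = 0.0228) and with UR against the ND (-0.33, limma adjusted p = 0.0352). With the ND its probe ILMN_2642985 read 9.84, 9.22 and 9.60 in liver, with the HFD 10.14, 9.50 and 9.60 and with UR 10.23, 10.46 and 10.35. The ND and HFD arrays overlapped, and the UR arrays lay above both, by 0.60 over the HFD. The dim probe ILMN_2685234 followed it over the 9 arrays (r = 0.898), with 0.38 from HFD to UR, while the brightest probe, ILMN_2705361, did so less (r = 0.534) and gave -0.12, or 0.16 with median scaling. ILMN_2685234 was detected on 2 of 3 ND arrays, 1 of 3 HFD arrays and 3 of 3 UR arrays. It was kept through UR alone, where it was highest, so it gives no separate reading of that rise. Of the lipid droplet proteins measured in liver, 6 of 15 rose and 4 fell with the HFD (13.3% and 11.6% of all probes), with Plin4 at 1.48 (SE 0.20) and G0s2, an inhibitor of lipolysis, at -0.98 (SE 0.12).

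As a description of the liver with UR, 8 of the 12 probes had all 3 UR arrays above all 3 HFD arrays, where 25.2% of all probes lay all above. Among the 8 was ILMN_2685234 of Hsd17b11, which was kept through its UR arrays alone. Nothing is read from these counts, because the members were chosen on this contrast. Hsd17b12 (ILMN_2689908) stood 0.66 and Hsd17b10 0.66 above the ND mean with UR, and the difference of Hsd17b7 was -1.12.

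In the wider steroid list of the liver, 3 of 9 measured partners rose and 3 fell with the HFD, where 13.3% and 11.6% of all probes did. Cyp7b1, the oxysterol hydroxylase, fell by 1.02 (SE 0.18, limma adjusted p = 0.00126), and Srd5a3, a polyprenol reductase, rose by 0.44 (SE 0.07, limma adjusted p = 0.000948). From HFD to UR Akr1c14, a hydroxysteroid dehydrogenase of the aldo-keto reductase family, changed by 1.68 (SE 0.11) and Srd5a3 by -0.32 (SE 0.07). Over the 9 partners 2 had all UR arrays above, where 25.2% of all probes did, and 3 had them all below. The share of all probes lying all below was not counted, and nothing is read from these counts. The median over the partners was 0.07. In the list of retinol and retinal genes 3 of 15 rose and 2 fell with the HFD, shares near those of all probes (13.3% and 11.6%). Among them were Rdh9 at 0.38 (SE 0.10, limma adjusted p = 0.0136) and Rdh11 at -0.98 (SE 0.18, limma adjusted p = 0.00148). From HFD to UR Rdh16 changed by 0.46 (SE 0.09) and Rbp4, the plasma carrier of retinol, by 2.15 (SE 0.08).

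In WAT as a whole 2 of the 10 kept probes rose with the HFD (Hsd17b7 and the dim Hsd11b1 probe), where 17.4% of all probes did, and 4 fell (Hsd17b10 and 3 of Hsd11b1), where 20.7% did. Between UR and the HFD 0 of 10 passed in limma, where 3.42% of all probes were higher and 4.13% lower. Of the 10, 1 had a limma unadjusted p under 0.05, where 24.5% of all probes had one. The rank product called 0 of them, and 186 higher and 273 lower over all probes. An unmoderated test per probe called 1 before adjustment (2365 and 2274 over all probes) and 0 after it (2 and 3). Over all probes the limma counts were 665 higher and 804 lower, and 143 and 255 without WAT UR replicate 2; they were also more than 1.5 times smaller without UR replicate 1 (227 and 342), UR replicate 3 (314 and 427), HFD replicate 2 (223 and 349) or HFD replicate 3 (185 and 298). The member probe with an unadjusted p under 0.05 was ILMN_2689908 of Hsd17b12, with -0.22 (SE 0.09, limma adjusted p = 0.152). Between UR and the ND 2 rose (background 19.9%) and 4 fell (background 24.2%). Those that rose were Hsd17b7 and the dim Hsd11b1 probe. That dim probe was detected on 0 of 3 ND arrays and kept in WAT through its UR arrays alone, so nothing is read from its rise. Both comparisons with the ND share the 3 ND arrays.

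In muscle 0 of 7 kept probes passed in any comparison by limma. With the HFD against the ND 6.00% of all probes were higher and 7.02% lower, with UR against the HFD 11.8% and 10.2%, and with UR against the ND 8.31% and 7.24%. At an unadjusted p under 0.05 the member counts were 1, 1 and 4 of 7, where 28.2%, 36.7% and 31.3% of all probes had one. The rank product called 0 in each, and an unmoderated test per probe called 0, 1 and 2 before and 0, 1 and 0 after adjustment; the probe that passed after it was that of Hsd17b11 for UR against the HFD (0.11 on the log2 scale). Of all 16332 probes the rank product called 133 higher and 170 lower, 253 and 115, and 199 and 189 in turn. The unmoderated test called 1838 and 1614, 2300 and 2640, and 1989 and 2251 before adjustment. After adjustment it called 3 and 0, 294 and 275, and 17 and 20. With median scaling 4 probes were lower with the HFD, those of Hsd17b7 and Hsd17b12 and 2 of Hsd11b1 (-0.22 to -0.33), and 4 were lower with UR than with the ND. Over all 16332 probes that setting called 112 higher and 3160 lower with the HFD, with a median change of -0.11. For UR against the ND it called 533 higher and 2592 lower, with a median of -0.09. Hsd17b7 read 9.163, 9.071 and 9.022 with the ND, 8.951, 9.003 and 8.794 with the HFD and 8.900, 8.906 and 8.863 with UR. Its HFD and UR arrays lay below every ND array, by -0.17 (SE 0.06, limma adjusted p = 0.1004) and -0.20 (SE 0.06, limma adjusted p = 0.0538). Hsd17b11 was detected on 0 of 3 HFD arrays, with detection p from 0.0588 to 0.0694, just outside the threshold. Its difference with the HFD was -0.10 (SE 0.05, limma adjusted p = 0.239) and did not pass. For the bright Hsd11b1 probes the confidence intervals of the HFD effect together ran from -0.26 to 0.13. The probe of Hsd17b12 that was not kept, ILMN_1234796, came nearest to the limit among those left out in muscle, with a group maximum of the detection p of 0.218.

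The HFD effect itself was compared between tissues on probes kept in both. Between liver and WAT 5 of 9 member probes differed (all probes 31.5%), namely Hsd17b7, Hsd17b10 and 3 of Hsd11b1. Between liver and muscle 2 of 7 differed (all probes 25.8%), Hsd17b7 by -0.85 (SE 0.13, limma adjusted p = 3.96e-05) and Hsd17b12 by 0.45 (SE 0.14, limma adjusted p = 0.0180). The call for Hsd17b12 was lost without liver ND replicate 2 (0.29, limma adjusted p = 0.0754) or muscle ND replicate 3 (0.40, limma adjusted p = 0.0519). Between WAT and muscle 5 of 7 differed (all probes 30.2%), Hsd17b7 by 0.84, Hsd17b10 by -0.53 and Hsd11b1 by -1.01, -1.12 and -1.09. The UR effect against the HFD differed between WAT and muscle on 0 of 7 probes in limma (all probes 18.8%), with 1 at an unadjusted p under 0.05. Each tissue's arrays enter 2 of the HFD comparisons, so these are not independent of one another. The tissues came from one set of mice, so pools of different tissues may share animals. The fits between tissues treated all arrays as independent, since the mice in each pool are not stated.

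**Figure D5:**
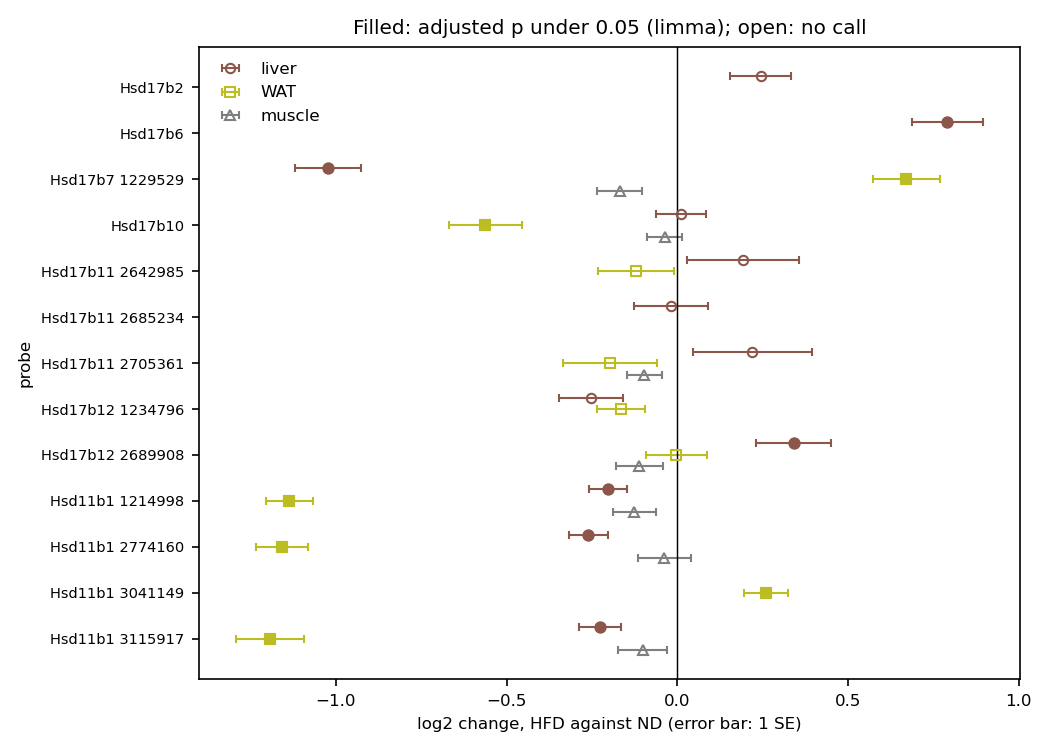
Log2 change from ND to HFD (x axis) with 1 SE for each member probe (y axis) in liver, WAT and muscle; filled points have a limma adjusted p under 0.05. Hsd17b7 lies left of 0 in liver and right of 0 in WAT, and the bright Hsd11b1 probes lie farthest left in WAT.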

How the data were processed

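Total RNA of pooled samples was measured on 27 Illumina 1-colour bead arrays. The authors deposited the scanner intensity of each probe with no normalization between arrays (lowest value 77.3), and a detection p-value beside each; a background subtraction is not mentioned. The authors also deposited quantile-normalized log2 values, used as an alternative in liver and WAT only, because its muscle columns repeat the WAT columns in 45281 of 45281 rows. The number of arrays limits the precision.

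Within each tissue, intensities were brought to common quantiles and taken to log2; tissue levels used the 27 arrays together. Groups were compared with lmFit and eBayes (intensity trend) of limma 3.58.1 in R 4.3.3, p-values were adjusted by Benjamini-Hochberg over all kept probes, and tests were checked on simulated data. Rank products (100 permutations), which the study's methods name for the arrays, and Student's test per probe, which they name for other measurements, were alternatives, with other normalizations, filters, the replicate number as a block and each array left out. Hepatic changes with UR were not tested.

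Every member is described on its kept probes. From each partner list the text names at most the 4 genes of smallest p per comparison (in the liver with UR, the largest changes), taking the brightest kept probe per gene. Counts over a partner list use these probes too, whereas the shares beside them are over all kept probes. With 1 probe per gene, 1637 of 9784 were higher and 1144 lower in liver with the HFD. In WAT with the HFD 2208 of 10753 were higher and 2409 lower. Likeness names the 5 genes of highest Pearson r. Members and lists were chosen with earlier results of these data known. Probe symbols came from the platform annotation, which gives 1 symbol for 34885 probes. Promoters were matched by symbol for 7 of 8 members.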

Additional observations from a re-analysis of the deposited data

Results flagged for a closer look

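The HFD effect (log2, HFD minus ND) differed between tissues by limma's interaction test for 4 members. Between liver and WAT 5 of 9 member probes were called (all probes 31.5%). Between liver and muscle 2 of 7 were (25.8%), and between WAT and muscle 5 of 7 (30.2%). Liver minus WAT was -1.69 for Hsd17b7, 0.57 for Hsd17b10 and 0.93, 0.90 and 0.97 for the Hsd11b1 probes ILMN_1214998, ILMN_2774160 and ILMN_3115917. Liver minus muscle was -0.85 for Hsd17b7 and 0.45 for Hsd17b12 (ILMN_2689908). The Hsd17b12 call was lost without liver ND replicate 2 or muscle ND replicate 3. WAT minus muscle was 0.84 for Hsd17b7, -0.53 for Hsd17b10 and -1.01, -1.12 and -1.09 for the same Hsd11b1 probes. For Hsd17b7 the arrays fell in liver and rose in WAT.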

How the results depend on the processing

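No alternative turned the direction of a probe that was called in the main fits. Tested probes without a call there were not compared for direction. Of the main values under each alternative 322 stayed close and 28 moved. For single probes 1451 stayed the same, 17 moved and 40 lost their call. The cause was not tested. The change of Hsd17b6 in liver from HFD to UR was 2.79 with median scaling and 2.97 with background correction, and from ND to UR 3.62 and 4.28. Median scaling moved the median of all liver probes from -0.07 to 0.10 for UR against the HFD and from -0.06 to 0.14 for UR against the ND, and that of all muscle probes from 0.01 to -0.11 with the HFD. It called 4 muscle probes for the HFD and 4 for UR against the ND. With median scaling the split of all called probes was 2406 higher and 1052 lower in liver with the HFD (2331 and 2034 otherwise), 849 and 496 in WAT for UR against the HFD (665 and 804), and in muscle 112 and 3160 with the HFD (980 and 1147), 1756 and 353 for UR against the HFD (1935 and 1668) and 533 and 2592 for UR against the ND (1357 and 1182). The counts in WAT were 3 with the HFD and 3 for UR against the ND with 1 probe per gene, and 3 and 3 by the rank product, which lost Hsd17b7, Hsd17b10 and the dim Hsd11b1 probe in both; adjusted Student's test called 3 with the HFD and lost the same probes (adjusted p = 0.0508, 0.0895 and 0.0993). In liver with the HFD the rank product called 2, Hsd17b6 and Hsd17b7, and adjusted Student's test 2. Single calls appeared for UR against the HFD in WAT (1 with only the 6 arrays, 1 by unadjusted Student's test), for UR against the HFD in muscle (1, Hsd17b11, by Student's test with or without adjustment) and for UR against the ND in muscle (1 without the trend, 1 with only the 6 arrays, 2 by unadjusted Student's test).

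Same-numbered arrays did not deviate together (correlations from -0.154 to 0.196), so the numbers were taken as names. With the replicate block 1 muscle probe was called for UR against the ND, and the counts were the same in the other comparisons of diets, 6 in WAT with the HFD, 6 for UR against the ND, and 6 in liver with the HFD, where ILMN_2689908 of Hsd17b12 lost its call (adjusted p = 0.0512 in limma) and ILMN_1234796 gained one (0.0310).

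With each array left out, the counts ran from 3 to 8 for liver with the HFD (3 without HFD replicate 3), 0 to 1 for UR against the ND in muscle (1 without ND replicate 3, HFD replicate 2 or HFD replicate 3), 1 to 3 for the HFD effect in liver against muscle (1 without liver ND replicate 2 or muscle ND replicate 3) and 0 to 1 for the UR effect in WAT against muscle (1 without WAT HFD replicate 3). Hsd17b6 ran from 2.44 to 2.61 and from 3.22 to 3.44. Over all probes, UR against the HFD in WAT gave 1249 higher and 1405 lower with only the 6 arrays, and 186 and 273 by the rank product, which called fewer probes in every comparison (378 and 279 in liver with the HFD, 515 and 390 in WAT with the HFD). In muscle the lowest counts with an array left out were 539 and 730 with the HFD (without ND replicate 2), and, without UR replicate 2, 1319 and 856 for UR against the HFD and 811 and 616 for UR against the ND. The authors' table could not be tried in muscle.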
